A study of Mus musculus with 6 samples.

Results

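The genes followed in sorted regulatory T cells (Tregs) were the transcription factor Foxp3 and 4 Ikaros family zinc-finger genes (Ikzf1, Ikzf2, Ikzf3 and Ikzf4). Added to them were 3 surface genes enriched in mouse Tregs (Izumo1r, Nrp1 and Gpr83). These 8 identity genes were taken by name from a count table of 49315 genes, whose Ensembl identifiers were matched to GENCODE M21 symbols, and all 8 were found. The 6 libraries were made from untreated Foxp3-GFP mice, in which green fluorescent protein reports Foxp3, and comprised 3 of skin Tregs and 3 of skin-draining lymph node (SDLN) Tregs, lettered A to C in each tissue. The study's methods describe mice 9 days old on a C57BL/6J background, of both sexes, with 3 mice pooled per sample, from which leukocytes were enriched on CD45 beads and viable CD4+ cells carrying the Foxp3-EGFP reporter were sorted. The labels do not say which reporter allele was used, and their tissue field reads skin for the SDLN samples too, so the groups rest on the sample titles.

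Foxp3 specifies the Treg lineage and keeps its programme in place, and mutations that inactivate it cause fatal autoimmunity in mice. The Ikaros family proteins bind DNA through zinc fingers and recruit chromatin-modifying co-repressors. Helios (Ikzf2) and Eos (Ikzf4) are enriched in Tregs and act together with Foxp3, whereas Ikaros (Ikzf1) and Aiolos (Ikzf3) are found in most lymphocytes. Izumo1r encodes folate receptor 4, Nrp1 encodes neuropilin-1, a co-receptor for semaphorins and vascular endothelial growth factors, and Gpr83 encodes a G protein-coupled receptor.

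Izumo1r and Gpr83 are neighbours on chromosome 9 of GRCm38. Gpr83 occupies 14860210 to 14870789 on the plus strand and Izumo1r 14885814 to 14903949 on the minus strand, so that their 3′ ends face each other across 15024 bases that hold 0 other GENCODE M21 genes. The promoter windows of these neighbours are shown because they were the members without a count in any skin library, and that of Foxp3 because its locus drives the reporter used in the sort. Each window runs from 250 bases before the RefSeq start site to 50 after it (GRCm38.p6), written 5′ to 3′ on the gene's own strand, as chr9:14859960-14860259 (plus), chr9:14903718-14904017 (minus) and chrX:7579426-7579725 (plus), the last being the first of the 2 Foxp3 start sites listed. Capitals mark matches to TGGGAA, the core letters bound by the Ikaros family, or to TGTTTAC, a forkhead motif, on either strand.
Gpr83: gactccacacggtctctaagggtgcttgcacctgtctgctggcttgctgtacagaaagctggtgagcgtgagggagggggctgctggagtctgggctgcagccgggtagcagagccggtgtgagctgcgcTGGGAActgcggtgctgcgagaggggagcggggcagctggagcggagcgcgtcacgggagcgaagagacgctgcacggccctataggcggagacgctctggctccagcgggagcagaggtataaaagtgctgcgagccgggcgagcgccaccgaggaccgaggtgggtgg
Izumo1r: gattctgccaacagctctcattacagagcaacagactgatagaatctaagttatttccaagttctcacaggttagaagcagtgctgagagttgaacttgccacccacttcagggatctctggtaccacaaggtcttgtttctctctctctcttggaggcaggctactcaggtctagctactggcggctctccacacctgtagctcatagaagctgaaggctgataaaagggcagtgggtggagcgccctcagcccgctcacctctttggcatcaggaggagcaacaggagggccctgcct
Foxp3: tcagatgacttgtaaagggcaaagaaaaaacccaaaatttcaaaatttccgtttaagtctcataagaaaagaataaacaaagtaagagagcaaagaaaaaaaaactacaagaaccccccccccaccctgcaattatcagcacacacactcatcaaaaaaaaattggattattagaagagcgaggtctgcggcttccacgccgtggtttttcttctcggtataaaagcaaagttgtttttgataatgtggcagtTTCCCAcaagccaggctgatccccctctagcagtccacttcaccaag
Gpr83 held TGGGAA once on its own strand and the Foxp3 window shown held it once on the opposite strand, printed as TTCCCA, while the Izumo1r window and that of the second Foxp3 start site held neither motif. Of 32851 RefSeq promoter windows of the same length, 25.6% held TGGGAA and 3.65% held TGTTTAC on either strand, so that the matches are given as letters, not as binding sites. The G and C content of the windows was 67.0% for Gpr83, 52.3% for Izumo1r and 40.7% for Foxp3, and the numbers of CpG dinucleotides were 24, 3 and 6. Sequences were also listed for Ikzf1 and Nrp1, which makes 5 of the 8 members, and not for Ikzf2, Ikzf3 and Ikzf4.

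The libraries differed in depth. The skin libraries totalled 3748669 to 11741784 counts and the SDLN libraries 47243498 to 116158706, and 2911 to 5317 genes reached 1 CPM (the count scaled to a library total of 1000000) in skin against 12397 to 13002 in SDLN. A count of 0 allows up to 3 counts, and genes with no more than these 3 are described as at the floor. The highest floor was 0.800 CPM, in skin library A, and the SDLN floors were 0.0258 to 0.0635 CPM. These limits cover counting error only, since reads copied from the same cDNA molecule were not told apart.

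Every identity gene was over the floor in each SDLN library, whereas the skin libraries held only part of the set. Skin library A held 5 of the 8 genes over the floor, skin library B 4 and skin library C 3. Ikzf1, Ikzf2 and Ikzf3 exceeded it in all 3 skin libraries, Foxp3, Ikzf4 and Nrp1 in 1 each, and Izumo1r and Gpr83 in 0. Of all genes tested, 43.3% were at the floor in each of the skin libraries. Of genes at 100 to 300 CPM in SDLN Tregs, 39.4%, 77.3% and 71.0% were over the floor in skin libraries A to C. Ikzf1, Ikzf3, Ikzf4, Nrp1 and Gpr83 lay at that level. In these bulk samples fewer cells of a type and less RNA per cell cannot be told apart.

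Counts in skin were mostly either near 0 or high. Of the 24 values (8 genes in 3 skin libraries), 12 were at the floor, 10 of them at 0, and 11 were over 50 counts, the lowest of these being 251. The remaining value was 8 counts, for Ikzf1 in skin library B. Among all genes averaging 100 to 1000 CPM in SDLN Tregs, values over the floor but at most 50 counts were likewise few, at 2.72%, 2.85% and 6.01% in skin libraries A to C.

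**Figure D1:**
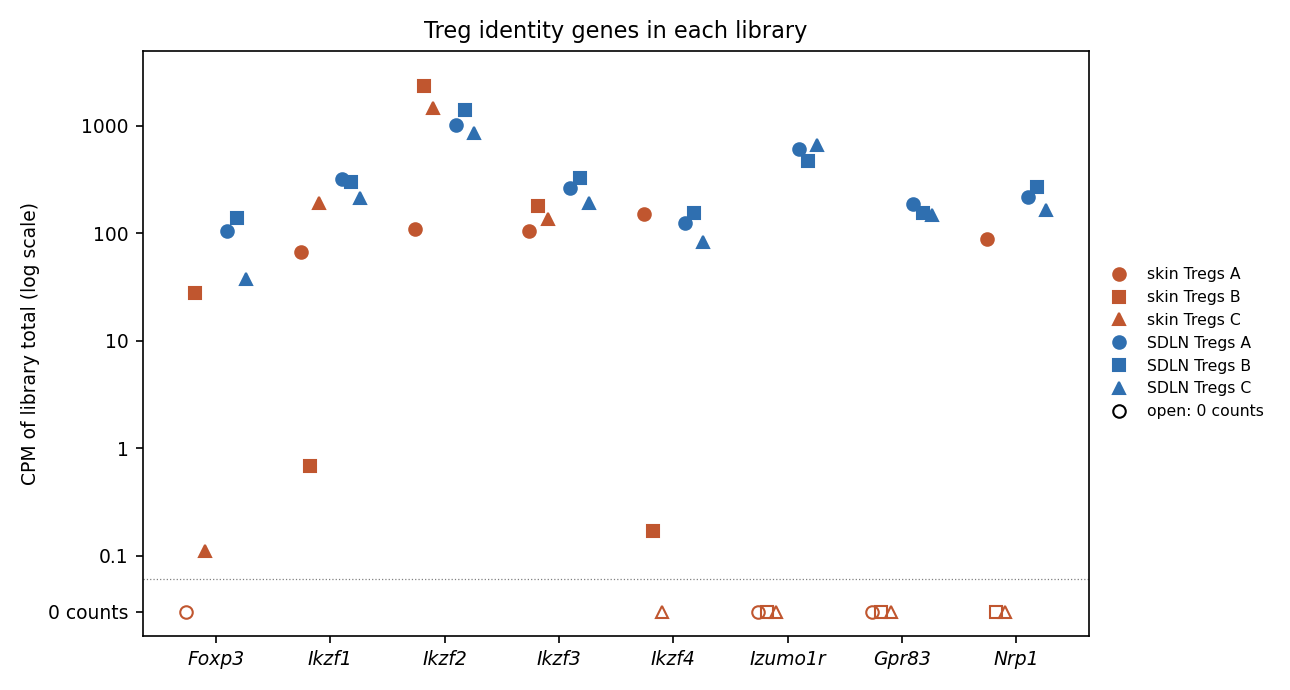
Level of each identity gene in each library, in CPM of the library total on a log scale, with skin Tregs in orange, SDLN Tregs in blue and the letters A to C as circles, squares and triangles. Open symbols below the dotted line are libraries with 0 counts; Izumo1r and Gpr83 have 0 counts in all 3 skin libraries, while Ikzf2 in skin ranges from 109.9 to 2330 CPM.

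With edgeR's quasi-likelihood test and Benjamini-Hochberg adjustment over 13572 genes, 2 of the 8 members were called lower in skin Tregs at an adjusted p under 0.05, namely Izumo1r and Gpr83, and 0 were called higher. Of all genes tested, 45.3% were called lower in skin and 1.04% higher, so the members' share of lower calls was not above that of the table. Lower calls were rarer among genes with SDLN levels like those of Izumo1r (300 to 1000 CPM, 3.09% of genes) and Gpr83 (100 to 300 CPM, 10.6%). An unadjusted p under 0.05 was reached by the same 2 members and by 48.1% of all genes. Neither DESeq2 nor limma voom called a member higher, where they called 3.23% and 0.936% of genes. DESeq2 called the same number of members lower, 2, beside 51.9% of genes, and limma voom 5, beside 53% of genes. The share of genes called lower was 45.2% with DESeq2 size factors in edgeR, 45.4% with library size only, 45.5% with TMMwsp, 25.6% with no filter, 38.6% with libraries drawn down, 42.5%, 48.9% and 46.5% without skin libraries A to C in turn, and 40.6%, 40.1% and 41% without SDLN libraries A to C in turn. The groups did not overlap, with all skin libraries below all SDLN libraries, for 6 members, compared with 53.6% of all genes tested, and overlapped for Ikzf2 and Ikzf4. For those 6 members the exact two-sided permutation p over the CPM values was 0.1, the smallest that 3 against 3 libraries can give, and it was 0.3 for Ikzf4 and 0.7 for Ikzf2.

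The lineage factor Foxp3 (ENSMUSG00000039521, chromosome X, 7573644 to 7595245) was read in the sorted cells before the other members. It had 0, 330 and 1 counts in skin libraries A to C, and 12208, 10133 and 1788 counts in SDLN libraries A to C. Skin library B, at 28.1 CPM, therefore carried nearly all of the skin signal and still lay below the lowest SDLN library, at 37.8 CPM. The defining gene of the sorted cells was thus at the floor in 2 of 3 skin libraries, and skin Tregs here names the sort. Most genes at its SDLN level of 30 to 100 CPM were also at the floor in skin libraries A and C. In skin library B 49.7% of them were over it, the highest share of the 3 skin libraries. Values at the floor in skin libraries A and C were therefore not particular to Foxp3. The skin mean was 9.41 ± 16.2 CPM and the SDLN mean 94.0 ± 51.6 CPM (SD, n = 3 each). The fitted log2 fold change of skin over SDLN was -3.23 (SE 2.62, adjusted p 0.472 in edgeR). It passed in 2 of 13 alternatives: without skin library B (log2 fold change -10.22, adjusted p 0.00998), where both remaining skin libraries are at the floor, and with limma voom and quality weights (-7.50, adjusted p 0.0206). SDLN library C stood lowest of its group. Among SDLN libraries the highest Foxp3 level was 3.68 times the lowest, against 1.28 to 1.86 times for the other 7 members.

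Part of the Foxp3 gene model is shared with its neighbours. Of 4577 merged exon bases in GENCODE M21, 1443 (31.5%) also lie in exons of Flicr, Ppp1r3f, Ccdc22 or Gm36995, and how reads there were assigned is not given in the sources used here. Flicr, a long noncoding RNA on the same strand that is known to restrain Foxp3 expression, was singled out after its values were seen. It had 0, 0 and 175 counts in skin libraries A to C, thus a signal in the skin library with 1 Foxp3 count and not in the library with 330, and 2132, 1415 and 424 counts in SDLN Tregs. Ppp1r3f, Ccdc22 and Gm36995 had 0 counts in every skin library. For the other members at most 1.24% of exon bases are shared. Cd4, whose protein was gated in the same sort, had its signal in the same skin library as Foxp3, with 0, 1861 and 2 counts in skin libraries A to C.

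Helios was the only member whose skin mean lay above its SDLN mean. Ikzf2 (ENSMUSG00000025997, chromosome 1, 69531214 to 69687245) reached 109.9, 2330 and 1458 CPM in skin libraries A to C, and 1019, 1404 and 865 CPM in SDLN libraries A to C. Skin libraries B and C lay above all SDLN libraries and skin library A below them all. The skin mean of 1299 ± 1119 CPM and the SDLN mean of 1096 ± 277 CPM (SD, n = 3 each) gave a fitted log2 ratio of 0.42 (SE 1.06, adjusted p 0.894 in edgeR), which did not pass in any of 13 alternatives and became -0.19 without skin library B and -0.21 with limma voom. The summed level of the 8 members was 521.5, 2539 and 1787 CPM in skin libraries A to C against 2366 to 3214 CPM in SDLN Tregs. Ikzf2 made up 91.8% and 81.6% of the summed CPM of the 8 members in skin libraries B and C, 21.1% in skin library A, and 35.8% to 43.7% in SDLN Tregs. These shares are not scaled for length, and merged exons span 11613 bases in Ikzf2 and 2320 in Izumo1r.

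Aiolos varied least, relative to its mean, among the skin libraries. Ikzf3 (ENSMUSG00000018168, chromosome 11, 98464902 to 98546031) stood at 104.8, 180.2 and 136.5 CPM in skin libraries A to C, where the SDLN libraries had 261, 327 and 191.1 CPM. The skin values sat just below the SDLN values without overlap, at means of 140.5 ± 37.8 and 259.8 ± 67.9 CPM (SD, n = 3 each). The fitted log2 ratio, -0.83 (SE 0.738, adjusted p 0.521 in edgeR), passed in 0 of 13 alternatives, with values of -1.13 to -0.69.

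Ikaros was uneven in skin. Ikzf1 (ENSMUSG00000018654, chromosome 11, 11685003 to 11772926) had 251, 8 and 1739 counts in skin libraries A to C, that is 67.0, 0.681 and 192.5 CPM, against 318, 300.2 and 212 CPM in SDLN Tregs. Skin library C thus came close to the lowest SDLN library, and skin library B, the deepest of the skin libraries, was near the floor. Averages were 86.7 ± 97.4 CPM for skin and 277 ± 56.5 CPM for SDLN (SD, n = 3 each). Its log2 fold change was -1.51 (SE 1.69, adjusted p 0.650 in edgeR), and 0 of 13 alternatives passed. Without skin library C the value was -3.64, without skin library B -0.94 and with limma voom -2.87.

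Eos was seen in a single skin library. Ikzf4 (ENSMUSG00000002578, chromosome 10, 128630843 to 128645991) had 567, 2 and 0 counts in skin libraries A to C and 14544, 11323 and 3958 counts in SDLN Tregs. This gave 50.5 ± 87.3 CPM for skin and 121.5 ± 36.0 CPM for SDLN (SD, n = 3 each). At 151.3 CPM, skin library A lay within the SDLN range of 83.8 to 155.5 CPM. The fitted log2 fold change of -1.77 (SE 2.70) did not pass (adjusted p 0.778 in edgeR), but without skin library A the gene was called lower in skin (-10.41, adjusted p 0.0112), as it was with limma voom (-7.72, adjusted p 0.0198).

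The surface genes were mostly at the floor in skin. Izumo1r (ENSMUSG00000031933), known in T cells as the folate receptor of Tregs and anergic cells and in the egg as the receptor for a sperm protein, had 0 counts in every skin library and 71444, 34108 and 31492 counts in SDLN libraries A to C. This was 615, 469 and 667 CPM in SDLN, far over the skin floors. The adjusted p was 0.00322 in edgeR, and the gene was called lower in skin in all 13 alternatives (adjusted p up to 0.0173). Of 485 genes averaging 300 to 1000 CPM in SDLN Tregs, 5 (1.03%) were at the floor in each of the 3 skin libraries, Izumo1r among them.

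Gpr83 (ENSMUSG00000031932) had 0 counts in every skin library and 21743, 11164 and 6930 counts in SDLN libraries A to C. The corresponding SDLN levels of 187.2, 153.4 and 146.7 CPM were the closest to each other of any member. Its adjusted p was 0.0102 in edgeR, and it was called in 10 of 13 alternatives. The calls lost were those without SDLN library A (adjusted p 0.0627), B (0.0624) or C (0.0563), fits that leave 2 SDLN libraries. At its SDLN level of 100 to 300 CPM, 149 of 1760 genes (8.47%) stayed at the floor throughout skin. Set against the mean skin floor of 0.463 CPM, Izumo1r was at least 1260-fold lower and Gpr83 at least 351-fold lower in skin than in SDLN Tregs, bounds that cover counting error only.

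Nrp1 (ENSMUSG00000025810, chromosome 8, 128358604 to 128503363) had 332, 0 and 0 counts in skin libraries A to C and 25277, 19443 and 7707 counts in SDLN Tregs. In CPM the library with signal reached 88.6, compared with 163.1 to 267 in SDLN Tregs, and the group means were 29.5 ± 51.1 and 215.9 ± 52.0 CPM (SD, n = 3 each). The log2 fold change was -3.38 (SE 2.98, adjusted p 0.520 in edgeR), and the call appeared without skin library A (adjusted p 0.00581), where both remaining skin libraries are at 0, and with limma voom (-9.12, adjusted p 0.0107).

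**Figure D2:**
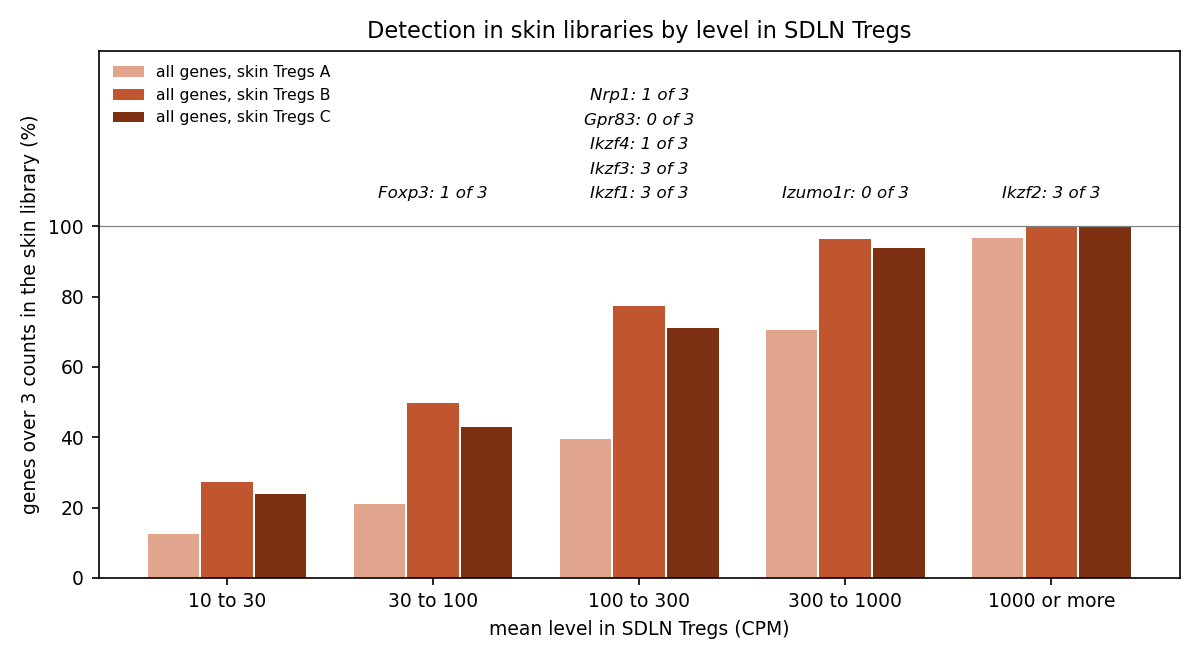
Share of all genes over 3 counts in each skin library (bars, percent) by the mean level of the gene in SDLN Tregs (CPM), with each identity gene written above the level it belongs to and the number of skin libraries that held it over 3 counts. Izumo1r was in 0 of 3 at a level where 70.5%, 96.5% and 94% of genes were over the floor in skin libraries A to C.

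Genes with higher SDLN levels were more often detected in skin, and the members spread over 4 such levels. At 300 to 1000 CPM, the level of Izumo1r, 67.2% of 485 genes exceeded the floor in all 3 skin libraries. At 100 to 300 CPM, where Ikzf1, Ikzf3, Ikzf4, Nrp1 and Gpr83 lay, 28.1% of 1760 genes exceeded the floor in every skin library and 2 of these 5 members did. Foxp3, with an SDLN mean of 94.0 CPM, fell among the 3649 genes at 30 to 100 CPM, of which 8.63% exceeded the floor in every skin library and 28.7% in none. Ikzf2 lay at 1000 CPM or more, where 96.7% of 91 genes were over the floor in all of them. These shares describe detection in the same libraries and are given with no test.

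Apart from summed CPM, levels were set side by side between genes only as CPM per kb of merged exon length. In SDLN Tregs Izumo1r was the most abundant member at 251 ± 44.3 CPM per kb (SD, n = 3), followed by Ikzf2 at 94.4 ± 23.9 and Ikzf1 at 47.9 ± 9.78, and the ranges of these 3 did not overlap. Gpr83 (31.9 ± 4.26), Ikzf3 (29.7 ± 7.76), Nrp1 (22.1 ± 5.31), Foxp3 (20.5 ± 11.3) and Ikzf4 (20.3 ± 6.01) followed, and each of these overlapped its neighbour in the order. The order in skin was another. In skin libraries B and C Ikzf2 led, at 200.6 and 125.6 CPM per kb, with the next member at 20.6 (Ikzf3) and 33.3 (Ikzf1). In skin library A Ikzf4 led at 25.2 CPM per kb, and Ikzf2 was at 9.46.

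**Figure D3:**
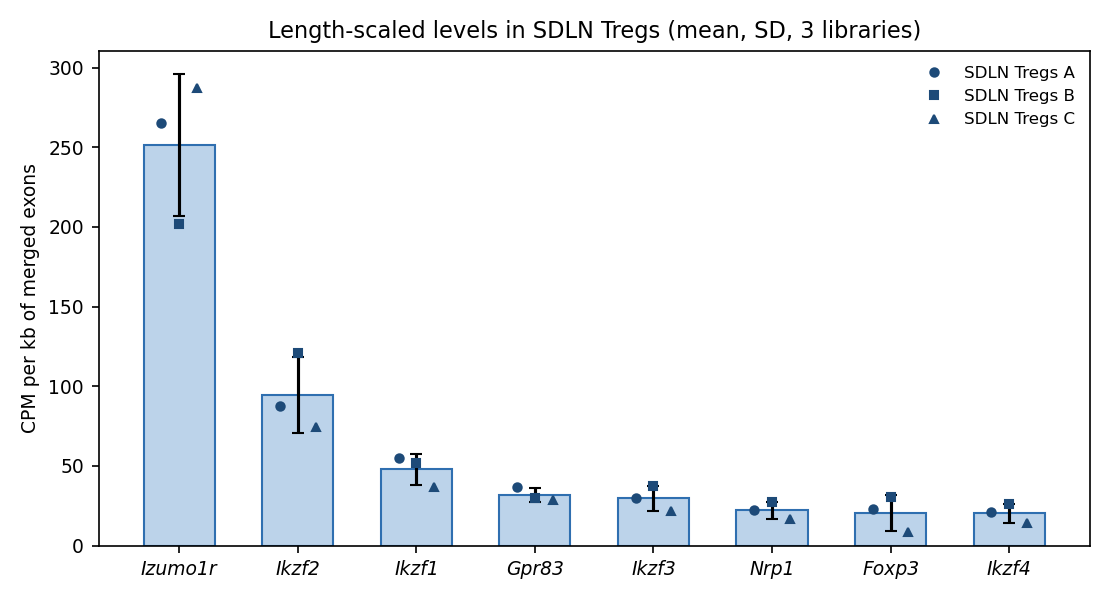
Length-scaled levels of the identity genes in SDLN Tregs, in CPM per kb of merged exons, with bars for the mean, error bars for the SD and symbols for the 3 libraries. Izumo1r stands highest at 251, Ikzf2 next at 94.4, and the 5 genes from Gpr83 to Ikzf4 overlap their neighbours.

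Genes that work with the members were read from 5 companion lists, of which 79 genes entered the test. Among them 18 were called lower in skin and 5 higher, beside 45.3% and 1.04% of all genes tested. The lists were chosen with earlier results of these libraries known, so they are described by counts and medians alone. The median fitted log2 fold change was -2.21 over all genes tested, and -1.36 with genes at 0 in every library of a group set to a bound from the mean floor of that group.

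Of 24 Foxp3 regulators and DNA-binding partners, 7 were called lower in skin and 1 higher, with a median log2 fold change of -1.09 on either basis. The gene that rose was Rel, the NF-kB subunit c-Rel that acts at the Foxp3 locus, at 710, 336 and 618 CPM in skin libraries A to C against 84.9, 123.5 and 42.4 CPM in SDLN Tregs (log2 fold change 2.73, SE 0.674, adjusted p 0.0175 in edgeR). The call for Rel was lost without skin library C (adjusted p 0.0605), SDLN library A (0.102) or SDLN library C (0.0593), and with no filter on low counts (0.118). Tcf7 and Lef1, related transcription factors of resting and naive T cells, were lower in skin. Tcf7 had 0 counts in all skin libraries and 262.5 ± 60.7 CPM in SDLN, and Lef1 had 0, 2 and 4 counts in skin and 339 ± 22.8 CPM in SDLN (adjusted p 0.00606 and 0.00529).

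Of 19 genes listed as Ikaros family co-repressor partners, 4 were called lower in skin and 0 higher (median log2 fold change -1.25). The list includes the further family member Ikzf5 and subunits of the NuRD and Sin3 complexes. Sin3b, a scaffold of histone deacetylase complexes, had 0, 0 and 1 counts in skin and 14311, 8459 and 4886 counts in SDLN (adjusted p 0.00992 in edgeR). Mbd3, a NuRD subunit, had 0, 0 and 3 counts in skin and 56.1 ± 16.9 CPM in SDLN (adjusted p 0.0218), a call lost without SDLN library A (0.0519) or B (0.0606). At an unadjusted p under 0.05, and with DESeq2 or limma voom, 0 genes of this list were higher in skin.

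Of 17 neuropilin ligands, co-receptors and signalling partners 12 could be tested, with 3 called lower in skin and 1 higher. Plxnd1, a semaphorin receptor, had 1, 8 and 1 counts in skin and 37.6 ± 13.4 CPM in SDLN (adjusted p 0.00443 in edgeR). Plxna3, which pairs with neuropilins, had 0 counts in all skin libraries and 3.86 ± 0.773 CPM in SDLN (adjusted p 0.00322). Lower calls are common among genes this low: at 10 to 30 CPM in SDLN Tregs, a higher level, 60.3% of genes were called lower in skin. The gene higher in skin was Flt1, a receptor for vascular endothelial growth factors, named here after its values were seen. Flt1 was at 45.3, 28.4 and 41.7 CPM in skin libraries A to C and had 2, 28 and 0 counts in SDLN Tregs (adjusted p 0.0244), and its call was lost without SDLN library A (0.121) or C (0.0509). Flt1 is also on the endothelial list. There Kdr, another receptor for these growth factors, had 97, 0 and 0 counts in skin libraries A to C and 0, 8 and 1 in SDLN, Cdh5, Plvap and Vwf had 0 counts in skin and at most 79 in an SDLN library, and Tek and Emcn had 0 counts in all 6. Pecam1, on the same list, had 0, 6 and 48 counts in skin libraries A to C and averaged 161 CPM in SDLN. The part of endothelial or other cells in the Flt1 value was not tested.

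The folate receptor family has 2 further members in these data, and neither entered the test. Folr2, known as a marker of resident macrophages, had 439, 0 and 415 counts in skin libraries A to C and 0, 3 and 0 counts in SDLN Tregs. Folr1 had 1 count in all.

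Other Treg signature genes were read in the same way. Of 24 genes, 3 were called higher in skin and 4 lower, the median log2 fold change was 0.39, and 14 were over the floor in all skin libraries. The 1623 genes over the floor in all 6 libraries had a median of 0.28. The summed level was 11850 to 14166 CPM in skin Tregs and 9915 to 10870 CPM in SDLN Tregs. Cd83, a surface molecule of activated lymphocytes and antigen-presenting cells, was at 1261, 1068 and 1338 CPM in skin libraries A to C against 489, 471 and 576 CPM in SDLN Tregs (log2 fold change 1.25, SE 0.375, adjusted p 0.0359 in edgeR). Ctla4 and Il10, an inhibitory receptor and a suppressive cytokine of Tregs, were the others called higher. Il10 and Cd83, like Rel above, are also expressed by myeloid cells, of whose listed genes 16 of 19 tested were called higher in skin, and the part of those cells in these values was not tested. Ctla4 averaged 1100 ± 272 CPM in skin Tregs and 485 ± 119 CPM in SDLN Tregs, and Il10 averaged 248 ± 75.1 and 17.5 ± 6.47 CPM (SD, n = 3 each). The Cd83 call held in 6 of 13 alternatives, that of Il10 in 9 and that of Ctla4 in 3. Without skin library A the Cd83 call held, whereas without any other single library its adjusted p was 0.0570 to 0.117. Il10 lost its call without SDLN library A, B or C (adjusted p 0.0982 to 0.167), and Ctla4 without any of the 6 libraries in turn (0.0567 to 0.198). The genes called lower were Nt5e, Plagl1, Dapl1 and Pde3b. Nt5e, which encodes the ectoenzyme CD73, had 0, 0 and 4 counts in skin and 452 ± 190.2 CPM in SDLN (adjusted p 0.00955).

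**Figure D4:**
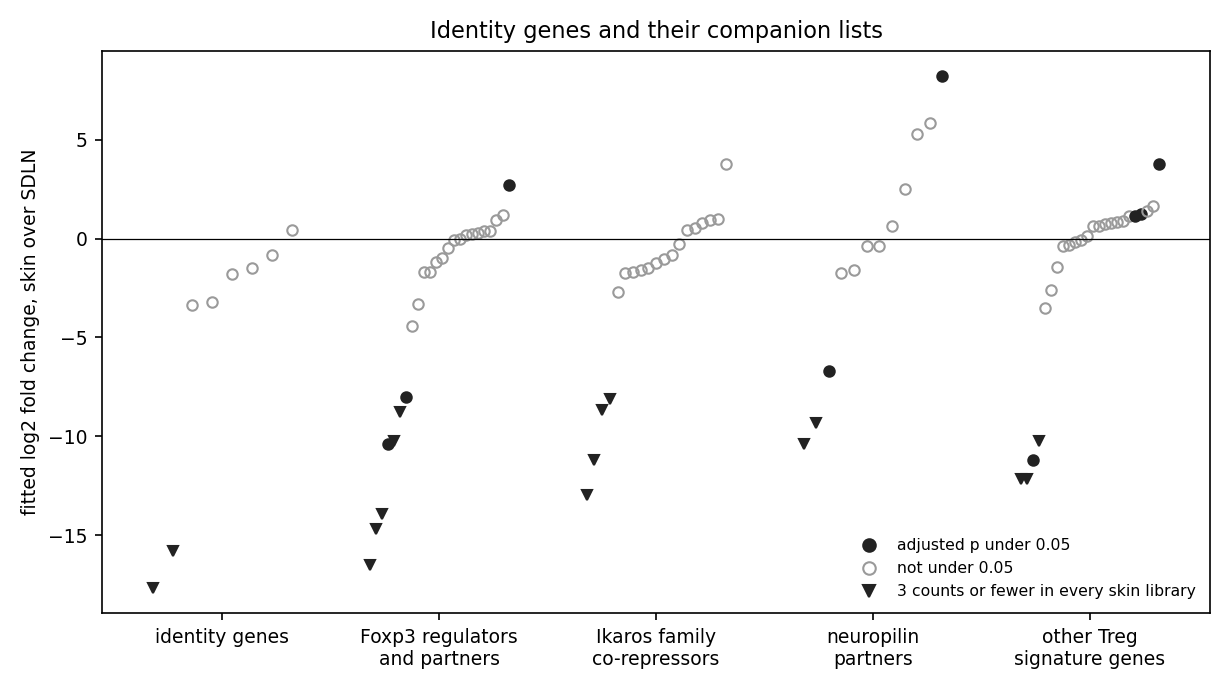
Fitted log2 fold changes of skin over SDLN Tregs for the identity genes and 4 companion lists, with a symbol per gene, black where the adjusted p was under 0.05 and a downward triangle where all skin libraries had 3 counts or fewer. Values of the triangles depend on the prior count of the fit and are no measure of size; the identity genes sit below 0 except Ikzf2 at 0.42.

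Markers of other cells moved with the comparison. Myeloid genes summed to 58500, 38295 and 35035 CPM in skin libraries A to C against 896 to 1107 CPM in SDLN Tregs, with 16 of 19 tested genes called higher in skin and 2 lower. Among those higher in skin were Cd209a, a lectin of dendritic cells, at 1017, 1195 and 1117 CPM in skin libraries A to C against 0.732 to 2.24 CPM in SDLN Tregs, and Mrc1, the macrophage mannose receptor, with 4276, 3159 and 2709 counts in skin against 0, 0 and 5 in SDLN. The macrophage genes Lyz2, Csf1r, Cd68, C1qb and C1qc and the antigen-presentation genes Cd74, H2-Aa and H2-Ab1 were also called higher. The macrophage gene Adgre1, with 3168, 7464 and 1 counts in skin libraries A to C, was called too, but only in 5 of 12 alternatives. The genes called lower were Itgam and Xcr1, with 0 counts in every skin library, and Cd207 had 0 counts in all 6 libraries. The pan T cell list summed to 4045, 7070 and 7665 CPM in skin against 10373 to 12374 CPM in SDLN, with 0 of 14 genes called by edgeR in either direction and 7 seen over the floor throughout skin. At an unadjusted p under 0.05 edgeR had 2 of these genes lower and 0 higher, DESeq2 called 3 lower and 1 higher, and limma voom 1 lower. Skin library A, which alone held Nrp1 and Ikzf4 over the floor among skin libraries, had the highest myeloid sum and the lowest T cell sum. That myeloid sum was mostly Cd74, H2-Aa and H2-Ab1, at 26833, 9816 and 13485 CPM. The macrophage genes named above differed in direction. Csf1r, a macrophage growth factor receptor, was at 42.9 CPM in skin library A against 596 and 504 CPM in skin libraries B and C. C1qb and C1qc were also lowest in skin library A. Mrc1 (1141 against 269 and 300 CPM), Lyz2 (1978 against 1520 and 1057 CPM), Cd68 and Adgre1 were highest there. Nrp1 is also made by myeloid and plasmacytoid dendritic cells. The plasmacytoid list summed to 707 CPM in skin library A and 187.4 and 130.7 CPM in skin libraries B and C, against 119.3 to 165 CPM in SDLN Tregs, and 0 of its 6 tested genes were called higher by edgeR, DESeq2 or limma voom or had a higher skin level at an unadjusted p under 0.05. The skin sums came from Bst2 (512, 78.1 and 0 CPM in skin libraries A to C), Irf8 (195.0, 0 and 0) and Tcf4 (0, 109.3 and 130.7), which other cells also express. Siglech, Ccr9, Ly6d and Klk1 had 0 counts in every skin library. The part of these cells in the members' values was not tested.

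The genes most like each member over the 6 libraries were sought among 6902 protein-coding genes with an SDLN mean of at least 20 CPM, by the root mean square difference in log2(CPM + 1) after each gene's SDLN mean was subtracted. For Gpr83 the nearest were Snx17 (0.094), Elp2 (0.148) and Lonp2 (0.157), all at the floor in skin. For Izumo1r they included Gimap4 (0.371) and Nt5e (0.690). The nearest to Foxp3 were Stat2 (0.327), Sh2d3c (0.346) and Srebf2 (0.365), each with skin signal in library B alone, and the nearest to Nrp1, with signal in library A, were St6gal1 (0.260), Il6ra (0.389) and Tcp11l2 (0.426). Cops3 (0.188) was nearest to Ikzf4, Ddx18 (0.220) to Ikzf3, Naa15 (0.239) to Ikzf2 and Cstf2t (0.414) to Ikzf1. These points share library and depth, and the differences are given as a description.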

How the data were processed

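RNA of sorted skin and SDLN Tregs was sequenced in 3 pooled samples per tissue. The authors trimmed reads with Trimmomatic 0.36, mapped them to GRCm38 with STAR 2.5.2b and counted reads in exons per gene with featureCounts (Subread 1.5.2), and the deposited numbers are read counts for each Ensembl gene, unnormalized. The annotation release, strand setting and duplicate handling are not given in the sources used here, so counts of overlapping genes are uncertain. GENCODE M21, on the same build, named 49056 of 49315 genes, and 24401 had 0 counts in every library. Columns are lettered and titles numbered, so columns were assigned to groups only. The methods describe 3 pooled samples without saying whether a pool of mice supplied both tissues. Nothing says whether samples came from separate litters, so p-values measure the spread between these samples.

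Genes were filtered with filterByExpr and fitted with TMM factors and tissue as the only term in edgeR 4.0.16 (glmQLFit, robust; glmQLFTest) in R 4.3.3, with Benjamini-Hochberg adjustment over all genes tested and a threshold of 0.05. SE was derived from the F statistic. CPM is relative to the library total, and CPM per kb divides it by merged exon length. Promoter sequences came from RefSeq (GRCm38.p6). Alternatives were DESeq2 1.42.0 (test and size factors), TMMwsp, library size only, limma 3.58.1 voom with quality weights, no filter, libraries drawn down to the smallest total, and each library left out in turn. The identity genes and all lists were chosen with earlier results of these data known. From each companion list the text names called genes over the floor in at least 2 libraries of each group and the 2 other called genes highest in SDLN Tregs, and for each member up to 3 genes nearest in pattern. Some genes are not reported here.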

Additional observations from a re-analysis of the deposited data

How the results depend on the processing

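The 8 identity genes were refitted under 13 alternatives. No paired analysis by the replicate numbers of the labels was possible because the deposited columns are lettered. A fit with the shared column letter as a replicate block was chosen after seeing the data. No source says that a letter marks a shared pool, and the deviations of same-lettered skin and SDLN libraries from their group means correlated at 0.040, -0.019 and 0.102 for A to C over 13572 genes, with skin library A closer to SDLN library B (0.076) than to A. With this replicate block 2 members were called lower and 0 higher (0 also at an unadjusted p under 0.05), Izumo1r and Gpr83 kept their calls (adjusted p 3.1e-05 and 0.0390) and Ikzf2 turned to -0.33, while the companion genes called numbered 12 lower and 1 higher. Over all genes the block called 41.5% lower and 0.449% higher. The number of members called lower in skin, 2 with the chosen settings, was 5 with limma voom and lay between 1 and 4 when single libraries were left out, while 0 were called higher in each. The number of companion genes called lower, 18, was 29 with limma voom and ran from 16 to 28 when 1 library was left out; the number called higher, 5, was 3 with limma voom, 1 with no filter on low counts and ran from 0 to 5 when 1 library was left out. The 0 came without SDLN libraries A or C in edgeR, where 1 and 4 genes had an unadjusted p under 0.05, and DESeq2 on all libraries called 7. The cause was not tested. Ikzf2 reversed its sign with limma voom (-0.21) and without skin library B (-0.19), its values lay between -0.19 and 0.78 when single libraries were left out, and no other member reversed in any alternative. Of 104 member fits, 93 kept direction and side of the threshold, 6 gained a call and 3 lost it. Over all genes the share called lower ran from 25.6% (no filter) to 53% (limma voom) and the share called higher from 0.309% (no filter) to 3.23% (DESeq2). Among genes over the floor in all libraries the median log2 fold change moved by -0.12 with TMMwsp and -0.21 with limma voom and by 0.10 with the DESeq2 test. Scaling CPM by TMM factors moved the skin means of Ikzf4 from 50.5 to 35.6 CPM and of Nrp1 from 29.5 to 20.8 CPM. A library total of 3748669 counts limits what skin library A can show below 0.800 CPM.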

Other observations

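Markers of other cell types were summed per list, and several sums rested on 1 gene. The CD8 and cytotoxic list reached 365 to 729 CPM in skin against 130.4 to 164.1 CPM in SDLN, carried by Nkg7 (365 to 604 CPM in skin) and, in skin library A, Klrd1 (255.6 CPM), while Cd8a, Cd8b1 and Prf1 had 0 counts in every skin library. The gamma delta T cell list was at 0 in skin libraries A and B, 116.7 CPM in skin library C, all of it Trdc, and 22.8 to 31.1 CPM in SDLN. B cell genes summed to 586 to 861 CPM in skin and 1475 to 1715 CPM in SDLN, nearly all of it Ighm, and Cd79a, Ms4a1 and Pax5 had 0 counts in skin.

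Mast cell and granulocyte genes were at 226 CPM in skin library A, of which Cma1 made up 216.3 CPM, at 0 in the other skin libraries and at 11.6 to 26.9 CPM in SDLN, mostly Kit. Keratinocyte genes were at 0, 50.8 and 0.221 CPM in skin libraries A to C and 32.5 to 40.4 CPM in SDLN, carried by Epcam, and Krt5, Krt14, Krt15 and Trp63 had 0 counts in all 6 libraries. The fibroblast list, at 92.9 to 400 CPM in skin and 231.5 to 247 CPM in SDLN, was mostly Thy1, which T cells express. Of its other genes Col1a2 (37.0 CPM) and Col3a1 (50.5 CPM) were seen in skin library B, and Lum and Pdgfra had 0 counts throughout. The endothelial list was at 29.0 to 71.2 CPM in skin, mainly Flt1 and in skin library A also Kdr, and at 139.2 to 173 CPM in SDLN, nearly all of it Pecam1 (138.9 to 172.7 CPM), so that its members ran in opposite directions. The melanocyte list was at 0 to 1.33 against 5.42 to 10.2 CPM, mostly Pmel in SDLN, and the erythroid list at 137.4 to 842 against 59.1 to 122 CPM.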
